A study of Arabidopsis thaliana with 12 samples.

Results

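The question addressed here is which genes responded to lincomycin differently in *pifq* than in WT seedlings of *Arabidopsis thaliana*. For each gene the response to lincomycin is the log2 fold change between treated and untreated seedlings of 1 genotype, and the difference between the responses (*pifq* minus WT) is the interaction of genotype and lincomycin. A gene had a lower response in *pifq* when this difference was negative, and a higher response when it was positive, at an adjusted p of at most 0.05 (quasi-likelihood test of edgeR, Benjamini-Hochberg adjusted over all genes tested). All 12 libraries of the series entered the test. Of 33601 loci counted, 14040 had at least 5 CPM (counts scaled to the library's total) in at least 2 libraries and were tested, and 699 were called (4.98%).

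The seedlings were 3 days old, whole, and grown in darkness without added sucrose in the Columbia background. WT dark and *pifq* dark were grown without the drug, and WT dark linc and *pifq* dark linc with 0.5 mM lincomycin in the medium, each in 3 biological replicates; they are called untreated and treated below. The *pifq* mutant carries the *pif1*, *pif3*, *pif4* and *pif5* mutations together, so that an effect of a single PIF cannot be read from it. In every library of *pifq*, *PIF1* was between 0 and 0.63 normalized CPM (CPM after the TMM scaling described below), against 14.5 to 16.6 in the 6 WT libraries, and *PIF3* was between 1.18 and 2.04 against 96.6 to 125. *PIF5* was also low in *pifq* (0.236 to 0.942 against 4.59 to 5.6). The 3′ reads of *PIF4* were not low in *pifq* (9.91 to 16.5 against 7.74 to 10.8), and reads at the 3′ end need not mark a mutation elsewhere in the gene.

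PIFs are basic helix-loop-helix transcription factors that accumulate in darkness, keep the seedling etiolated and hold photosynthesis genes low, and light triggers their removal through the phytochromes. Without them a dark-grown seedling begins to take on traits of a light-grown one. Lincomycin blocks protein synthesis on the ribosomes of the plastid, and plastids whose development is arrested in this way send retrograde signals that lower many nuclear genes for chloroplast proteins.

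Library totals ranged from 11495950 to 17612505 counts. TMM factors, which correct the totals for a few genes that take many reads, were 0.81 to 0.869 in untreated *pifq* and 0.996 to 1.11 in the other groups, and the consequence of leaving them out is given beside the counts of genes below. A level of 3 counts, taken as the smallest detected, corresponded to 0.17 to 0.261 CPM, which covers counting error only since amplified reads carry no molecular identifiers and so do not count molecules. Whole seedlings were sequenced, and fewer cells of a type and less RNA per cell cannot be told apart. Of 8 root markers, each had counts above 0 in some library, 1 was at 0 in others, 3 passed the filter and none of these was called. The sum of all 8 was 51.3 to 54.6 normalized CPM in untreated WT, 49.4 to 53.9 in treated WT, 41.6 to 48.7 in untreated *pifq* and 43.6 to 55.7 in treated *pifq*. Of 12 markers of epidermis, guard cells, phloem and shoot meristem, 2 were at 0 in some libraries and 7 were tested, and the sum of all 12 was 1159 to 1227, 960.0 to 1019, 978.8 to 1107 and 1154 to 1314 in the same order. The epidermal gene *PDF1* made up most of these sums and was itself called higher (difference 0.66, adjusted p = 0.0202), a call lost without WT dark 3, WT dark linc 1 or 3, *pifq* dark 2, or *pifq* dark linc 1 or 2 (adjusted p 0.052 to 0.0663). Its part in the results below was not tested.

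Lincomycin lowered plastid-related genes more in *pifq* than in WT, and raised a smaller and more varied group of genes in *pifq* that it left nearly as they were in WT. The test called 527 genes with a lower response in *pifq* (3.75% of the genes tested) and 172 with a higher response (1.23%), and 279 and 80 of them differed by at least 2-fold. At an unadjusted p under 0.05 there were 2110 genes in both directions together. The median difference was −1.03 among the genes called lower and 0.98 among those called higher, beside −0.01 over all genes tested.

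The genes called lower had a median response of −0.26 in WT and −1.33 in *pifq*. Their median level was 31.9 normalized CPM in untreated WT, 26.1 in treated WT, 75.2 in untreated *pifq* and 30.3 in treated *pifq*, so that *pifq* dark stood above the other groups. Their share of all counts was 4.99% ± 0.430 (SD, n = 3) in untreated WT, 3.40% ± 0.102 in treated WT, 18.9% ± 1.63 in untreated *pifq* and 5.21% ± 0.316 in treated *pifq*. Without the drug 497 of the 527 were higher in *pifq* than in WT and 14 were lower (adjusted p of at most 0.05 in the same fit, where 23.5% and 21.2% of all genes were). With it 215 were higher and 54 lower, where 15.9% and 16.6% of all genes were. These comparisons share libraries with the interaction and give no separate support to it.

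Untreated *pifq* had the lowest median level among the genes called higher. Their median response was −0.03 in WT and 0.91 in *pifq*, and their median levels were 24.1, 22.8, 11.1 and 20.5 normalized CPM in the same order of groups. Their share of all counts was ordered otherwise, at 4.1% ± 0.170, 4.12% ± 0.0964, 5.0% ± 0.786 and 3.23% ± 0.0787 (SD, n = 3), with untreated *pifq* the highest. Abundant genes weigh most in such a share. The genes called higher include the antenna genes *LHB1B2* (levels given below) and *CAB1*, which fell with lincomycin in both genotypes. The share without them was not computed, so it does not give the level of a typical gene of the group. Of the 172, 130 were lower and 18 higher in *pifq* than in WT without lincomycin, and 53 were lower and 56 higher with it, beside the same shares of all genes (21.2% lower and 23.5% higher without lincomycin, and 16.6% lower and 15.9% higher with it).

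**Figure D1:**
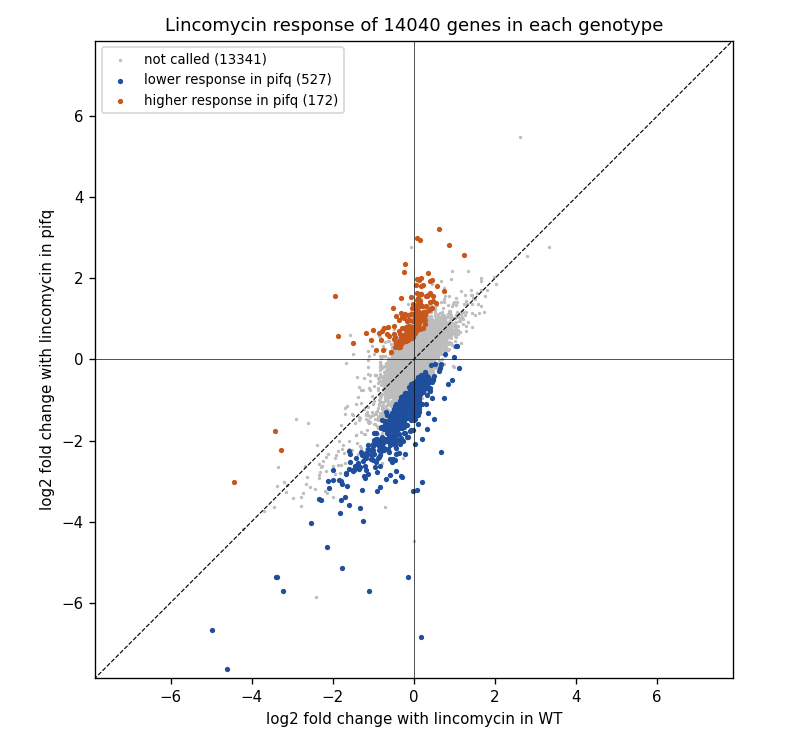
Log2 fold change with lincomycin in WT (x axis) and in *pifq* (y axis) for the 14040 genes tested. Each point is 1 gene, the dashed line marks equal responses, blue points are the 527 genes with a lower response in *pifq* and orange points the 172 with a higher one; most blue points lie left of or near 0 on the x axis and well below it on the y axis.

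Read by genotype, most calls came from genes whose response was called in *pifq* and not in WT. A gene not called in WT may still have moved there. Among the lower genes, 353 fell with lincomycin in *pifq* and were not called in WT, with median responses of −1.09 and −0.12. Another 158 fell in both genotypes, by medians of −2.16 in *pifq* and −0.86 in WT. Of the remaining genes, 10 rose in WT and were not called in *pifq*, 4 rose in WT and fell in *pifq*, and 2 were called in neither. Among the higher genes, 142 rose in *pifq* and were not called in WT (medians 0.97 and 0.04), 11 fell in WT and were not called in *pifq*, 5 rose in both, 3 fell in both, 1 fell in WT and rose in *pifq*, and 10 were called in neither. Over all genes tested, lincomycin lowered 13.5% and raised 11.2% in *pifq*, and lowered 3.03% and raised 3.63% in WT (6.66% in either direction).

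The number of calls depended on how the libraries were scaled. With library totals in place of TMM the median difference of all genes moved to 0.33, and the test called 270 genes lower and 1544 higher, so that 14.9% of the calls were lower against 75.4% with TMM. No gene called with TMM was called in the opposite direction, and all 172 genes called higher stayed called. Leaving out 1 library gave between 389 and 563 lower genes, and between 101 and 214 higher genes. The count of higher genes moved by more than 1.5 times without *pifq* dark linc 1 (101 genes), without *pifq* dark linc 2 (109) and without WT dark linc 3 (107).

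Chlorophyll synthesis begins from glutamate, and *HEMA1*, for the glutamyl-tRNA reductase that opens the tetrapyrrole pathway, was among the genes with the smallest p. *HEMA1* (AT1G58290, chr1:21623700-21626402 in TAIR10.1) had 100, 111 and 104 normalized CPM in the 3 WT dark libraries and 56.4, 59 and 50.7 in treated WT. In *pifq* dark it had 700, 684 and 713, and in *pifq* dark linc 113, 132 and 120. With the drug, *pifq* came down to just above the range of untreated WT, and no 2 groups overlapped. Its response was −0.92 (SE 0.11) in WT and −2.52 (SE 0.11) in *pifq*, a difference of −1.60 (SE 0.16, adjusted p = 1.63e-05 from edgeR).

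Of 27 genes of tetrapyrrole and chlorophyll synthesis, all tested, 15 were lower, 55.6% beside 3.75% of all genes, and the median difference was −0.76. Steps of the common trunk were among them: *HEMC* (hydroxymethylbilane synthase) at −1.42, *HEME1* (uroporphyrinogen decarboxylase) at −1.46, *HEMB1* at −0.88 and *PPOX* (protoporphyrinogen oxidase) at −1.25. On the magnesium branch, the chelatase subunit genes *CHLI1*, *CHLI2* and *CHLD* differed by −1.09, −0.94 and −1.03, the methyltransferase gene *CHLM* by −1.23, and *CAO*, for the enzyme that makes chlorophyll b, by −1.27. Other steps of the same branch were not called: *GUN5*, for the third chelatase subunit, had responses of −1.76 in WT and −2.12 in *pifq* (adjusted p = 0.421), its activator *GUN4* −2.40 and −2.11 (adjusted p = 0.655), and *PORB*, a protochlorophyllide oxidoreductase gene, −1.46 and −1.56 (adjusted p = 0.889). In WT these uncalled genes fell more than every called gene of the list except *CAO*. *FC1* and *FC2*, the ferrochelatase genes of the haem branch, were not called either, with differences of 0.16 and −0.13.

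**Figure D2:**
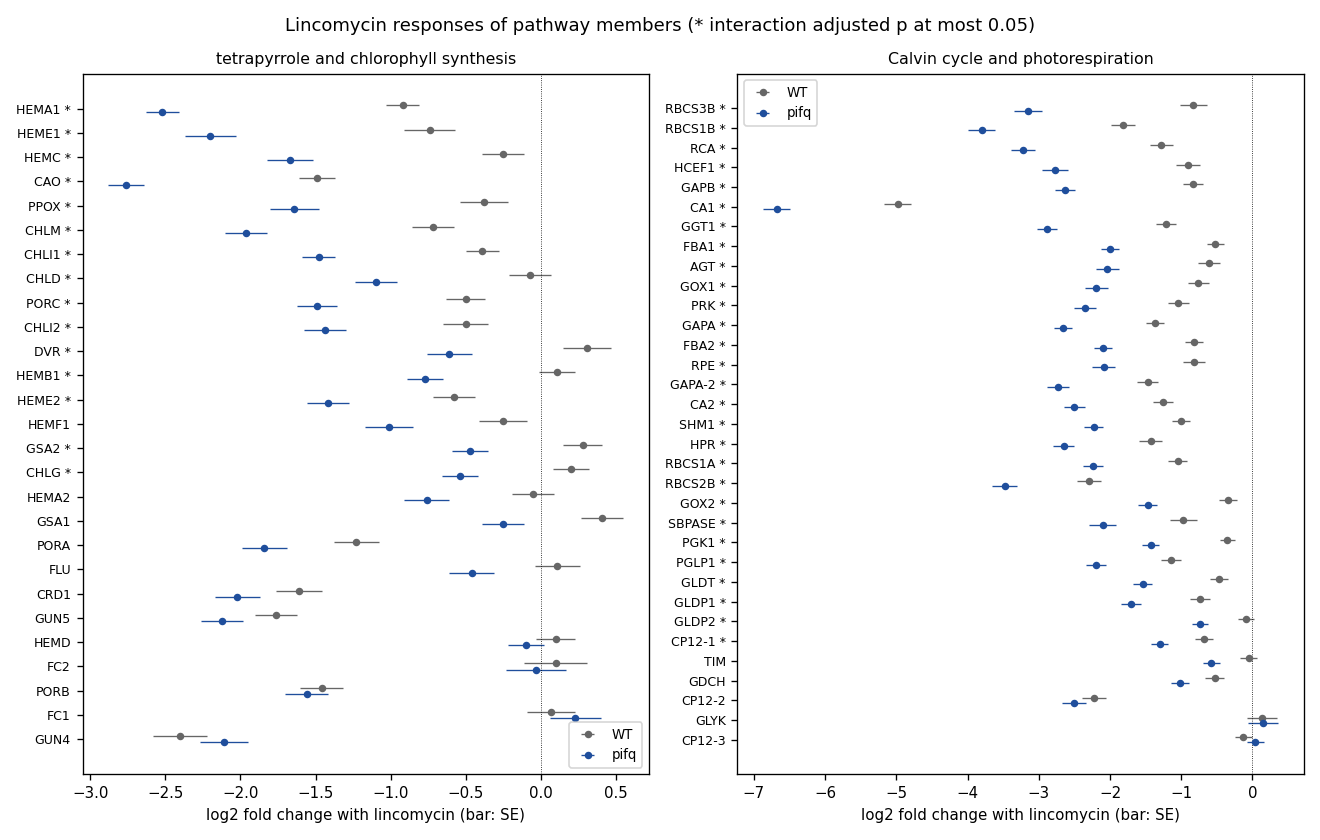
Log2 fold change with lincomycin in WT (grey) and *pifq* (blue) for every tested gene of 2 pathways, with bars for the SE of the 12-library fit (3 libraries a group) and an asterisk where the difference was called. In the Calvin cycle and photorespiration 28 of 33 genes are marked, and in the tetrapyrrole pathway 15 of 27, with *GUN4*, *PORB* and *GUN5* close to equal responses.

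The Calvin cycle, which fixes carbon dioxide, and photorespiration, which recovers the carbon that Rubisco loses to oxygen, formed the list with the highest share of calls: 28 of 33 genes were lower (84.8%), with a median difference of −1.23 and median responses of −0.83 in WT and −2.20 in *pifq*. *GAPB*, a subunit of plastid glyceraldehyde-3-phosphate dehydrogenase, had 344, 429 and 432 normalized CPM in untreated WT, 211, 206 and 257 in treated WT, 2196, 1971 and 2461 in untreated *pifq*, and 335, 379 and 359 in treated *pifq*. The treated *pifq* libraries overlapped untreated WT, and untreated *pifq* lay far above the rest. Its difference was −1.79 (SE 0.19, adjusted p = 3.96e-05). *RCA*, for Rubisco activase, differed by −1.93, *FBA1*, a plastid aldolase gene, by −1.48, and *GGT1*, for the aminotransferase that turns glyoxylate to glycine, by −1.65.

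The 4 genes of the Rubisco small subunit are close relatives, between which 3′ reads may be split, and they were also summed. The sum was 3677, 5350 and 4624 normalized CPM in untreated WT and 1883, 2245 and 2315 in treated WT, and 16416, 16617 and 15744 in untreated *pifq* and 2164, 2296 and 2068 in treated *pifq*. With lincomycin the genotypes overlapped. From the group means, the log2 change of the sum was −1.08 in WT and −2.90 in *pifq*. Taken singly, all were called, from −1.18 for *RBCS2B* to −2.31 for *RBCS3B*. The uncalled members of the list were *TIM*, *GDCH*, *CP12-2*, *CP12-3* and *GLYK*, with differences from −0.53 to 0.17.

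Light-harvesting antenna genes, whose proteins hold chlorophyll around the photosystems, moved in both directions. Of 20 tested, 10 were lower (50%, beside 3.75% of all genes) and 2 higher (10%, beside 1.23%), and the median difference was −0.73. The genes fell steeply in both genotypes (median −2.45 in WT and −3.09 in *pifq*). *LHB1B1* (AT2G34430, chr2:14524607-14525918) had 26.6, 23 and 20.6 normalized CPM in untreated WT, and 6.28, 5.5 and 19.9 in treated WT. In *pifq* it had 11302, 9731 and 12420 without the drug and 174, 244 and 220 with it. The treated *pifq* libraries still stood above every WT library. The difference was −4.60 (SE 0.46, adjusted p = 1.88e-05). *LHCB2.3* differed by −3.01, and of the antenna of photosystem I *LHCA1* differed by −1.67.

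The genes of the LHCB1 family did not move alike. *LHB1B2* had 258, 366 and 306 normalized CPM in untreated WT, 24.4, 28.7 and 42.1 in treated WT, 16285, 16474 and 14386 in untreated *pifq*, and 3193, 3785 and 2981 in treated *pifq*, and was higher by 1.04 (SE 0.26, adjusted p = 0.0272). *CAB1* was higher by 1.41 (SE 0.38, adjusted p = 0.0353), while its neighbours *CAB2* and *CAB3* were lower by 1.95 and 2.00 on the log2 scale. *CAB1*, *CAB3* and *LHB1B2* each share at least 90% of the bases of their 3′ ends with 2 other genes, so that reads may have been split among them. Summed over the 5 genes the family held 1639, 3223 and 1934 normalized CPM in untreated WT, 108.1, 125.7 and 178.7 in treated WT, 72035, 78610 and 63058 in untreated *pifq*, and 7845, 8899 and 6591 in treated *pifq*. The log2 change of the sum was thus −4.04 in WT and −3.20 in *pifq*. The genotypes differed by 0.85, opposite in sign to 3 of its 5 members. Both higher calls were fragile: leaving out 1 library ended that of *CAB1* in 8 cases (adjusted p 0.0528 to 0.113, without WT dark 2, any WT dark linc library, *pifq* dark 1 or 3, or *pifq* dark linc 1 or 2) and that of *LHB1B2* in 6 (0.0517 to 0.104, without WT dark 2 or 3, WT dark linc 1 or 2, or *pifq* dark linc 1 or 2).

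**Figure D3:**
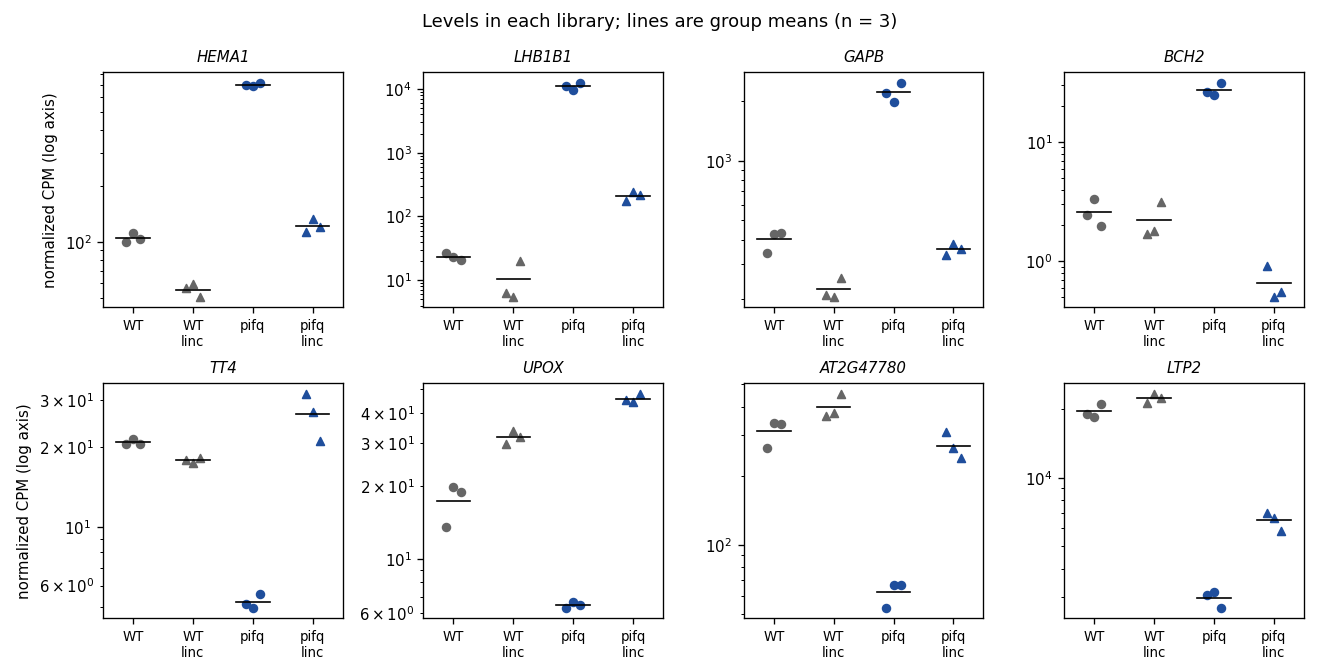
Normalized CPM (log axis) of 8 genes in each of the 12 libraries, with circles for untreated and triangles for lincomycin-treated seedlings, WT in grey and *pifq* in blue, and lines for the means of 3 libraries. In the upper row *pifq* dark is the highest group, and in the lower row it is the lowest; *BCH2* ends below WT with lincomycin, and *LTP2* stays below WT.

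Subunits of the photosystems, the cytochrome complex and the ATP synthase were lower for 22 of 36 genes (61.1%), with a median difference of −0.99. *PSAN*, a photosystem I subunit gene, fell with lincomycin from 228, 238 and 249 to 75.6, 62.6 and 81.4 normalized CPM in WT and from 2769, 2720 and 2988 to 243, 293 and 272 in *pifq*. Treated *pifq* again came to about the level of untreated WT. The difference was −1.69 (SE 0.18, adjusted p = 3.49e-05), and *PSAP* (also known as CURT1B, which bends thylakoid membranes), *ATPD* of the ATP synthase and *PSBO2* of the water-splitting complex differed by −1.94, −1.47 and −1.49. The chloroplast NDH complex, which cycles electrons around photosystem I, had 9 of 17 genes lower (52.9%, median −0.86), and all 17 differences were negative. *NDHU* was the extreme, with 33.1, 35.1 and 44.7 normalized CPM in untreated *pifq* and 0.911, 0.721 and 0.471 in treated *pifq*, against 7.06, 8.71 and 8.62 and then 0.459, 0.724 and 1.26 in WT.

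Plastid ribosomal proteins gave the clearest case of a response called in *pifq* and not in WT. Of 39 nuclear genes, 23 were lower (59%), and the median response was 0.01 in WT and −0.88 in *pifq*. *PRPL27* had 92.6, 126 and 125 normalized CPM in untreated WT and 86, 112 and 105 in treated WT, which overlap, and 372, 337 and 327 in untreated *pifq* and 149, 158 and 138 in treated *pifq*, which do not. Its difference was −1.03 (SE 0.19, adjusted p = 0.00287), and those of *PRPS20*, *PRPL17* and *PSRP5* were −0.96, −1.18 and −0.88. The other ribosomal protein genes, found by their descriptions, had 0 of 242 called by edgeR, with median responses of 0.35 in WT and 0.36 in *pifq*. At an unadjusted p under 0.05, 3 of them were lower and 3 higher, and DESeq2 called 1 lower. With library totals 13 plastid ribosomal protein genes remained lower in number, and 18 of the other ribosomal protein genes were called higher.

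In the plastid pathways for isoprenoids, carotenoids and tocopherol, 9 of 25 genes tested (of 30 listed) were lower, 36% beside 3.75% of all genes, with a median difference of −0.39. Their count fell to 4 without WT dark 1 and to 4 without *pifq* dark linc 1. With library totals 4 were lower and 1 higher, and the median moved to −0.06. With expression in both genotypes required, 8 were lower. *BCH2*, a beta-carotene hydroxylase gene (AT5G52570, chr5:21334793-21337126), had the largest difference of any called gene with more than 3 counts in every library. It passed the filter only through untreated *pifq*, as did AT3G60540, and *FLS1* only through treated *pifq*. It had 2.44, 3.33 and 1.97 normalized CPM in untreated WT, 1.68, 1.81 and 3.17 in treated WT, 26.4, 25 and 31.2 in untreated *pifq*, and 0.911, 0.505 and 0.549 in treated *pifq*. The WT groups overlapped, and with the drug *pifq* was below WT. The difference was −5.23 (SE 0.40, adjusted p = 1.43e-06). *PSY*, for phytoene synthase at the entry to carotenoids, and *DXS* and *HDR*, at the first and last steps of the plastid isoprenoid precursor pathway, differed by −1.30, −1.02 and −1.06.

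Proteins that build and maintain the plastid differed less. Among genes of plastid import, chaperones and proteases, 8 of 28 were lower (28.6%, median −0.46, and 4 of 28 with library totals), including *CPSRP43* and *FFC* of the signal recognition particle that delivers antenna proteins, at −1.31 and −1.08, and *FTSH2* and *FTSH5* of the thylakoid protease, at −1.07 and −1.04. Of 23 sigma factor and polymerase-associated genes tested, 2 were lower (8.7%, beside 3.75% of all genes), *PTAC16* at −0.94 and *PTAC5* at −0.86. Without WT dark linc 3 *PTAC5* lost its call (adjusted p = 0.0604). Of the uncalled ones, 11 rose with lincomycin in both genotypes, among them *PTAC10* (1.65 in WT and 1.92 in *pifq*) and *FLN1* (1.46 and 1.51). Of 9 regulators of chloroplast development tested, edgeR and DESeq2 called 0, and 2 were lower and 0 higher at an unadjusted p under 0.05. Their differences ran from −1.65 to 0.37, with a median of −0.20, and *GLK1* was among those not called. The lack of a call does not show that the responses were equal. With lincomycin 3 of the 9 fell in both genotypes, 1 fell and 1 rose in *pifq* without a call in WT, and 4 were called in neither. Of the 2 most abundant, *GUN1*, needed for retrograde signalling, differed by −0.32 (adjusted p = 0.509), and *HY5*, which promotes light-type growth, by −0.20 (adjusted p = 0.781).

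**Figure D4:**
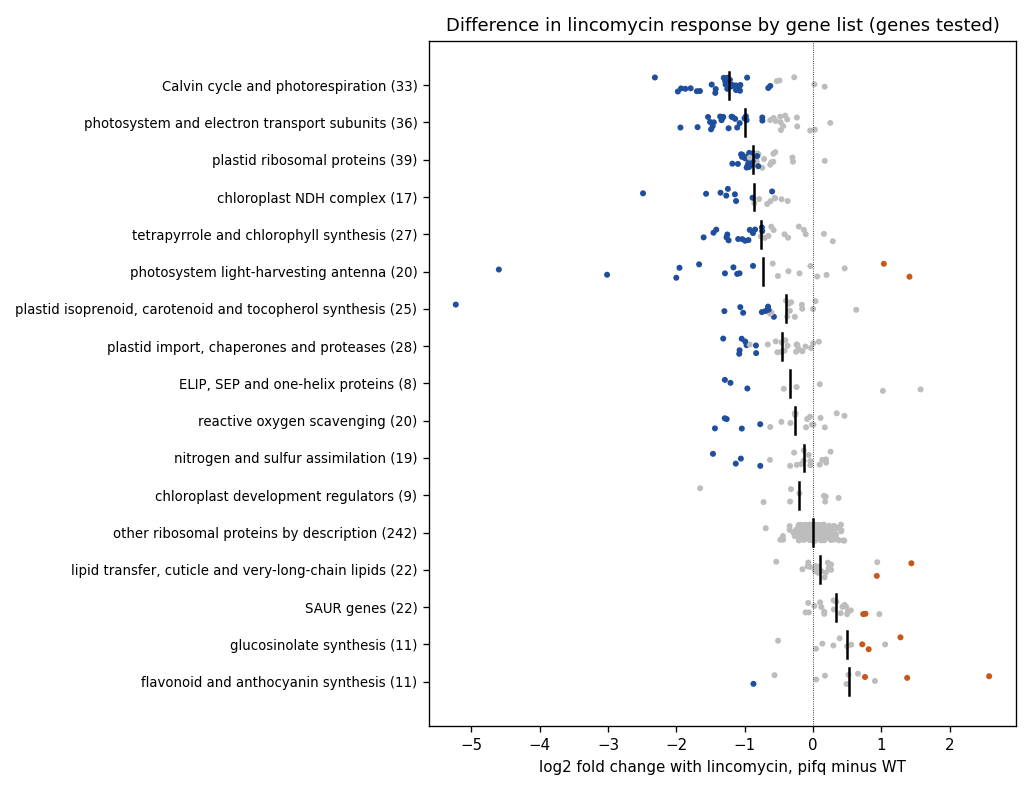
Difference in the lincomycin response (*pifq* minus WT, log2) of every tested gene in 17 lists, with the number of genes in brackets, black bars at the medians, and called genes in blue (lower) or orange (higher). The upper rows, from the Calvin cycle (median −1.23) to plastid import (−0.46), lie left of 0, the 242 other ribosomal protein genes centre on 0, and glucosinolate and flavonoid genes lie to the right.

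Genes next to photosynthesis in metabolism were also lower in part. In nitrogen and sulfur assimilation 4 of 19 were lower (21.1%, beside 3.75% of all genes), with a median of −0.14, which turned to 0.20 with library totals. The called genes were *GS2*, for plastid glutamine synthetase, at −1.46, *ASN1*, for asparagine synthetase, at −1.06, and the nitrate reductase genes *NIA2* and *NIA1* at −1.13 and −0.77. *GS2* had 565, 735 and 628 normalized CPM in untreated WT, 281, 316 and 358 in treated WT, 2792, 2406 and 2807 in untreated *pifq*, and 480, 472 and 488 in treated *pifq*. Here treated *pifq* fell below untreated WT, but stayed above treated WT. Of 20 genes for scavenging of reactive oxygen, 5 were lower (25%, median −0.26, and 0.08 with library totals). In number 3 remained without WT dark linc 2 or without *pifq* dark linc 1. *CAT2*, for the peroxisomal catalase that serves photorespiration, fell from 184, 177 and 205 to 56.9, 60.4 and 68.2 normalized CPM in *pifq*, below all WT libraries (96.1 to 136), with a difference of −1.43 (adjusted p = 0.000126). The one-helix protein genes *OHP2* and *OHP*, relatives of the antenna proteins, differed by −1.29 and −1.21.

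Of 18 B-box transcription factor genes tested (of 23 listed), 2 were lower (11.1%, beside 3.75% of all genes) and 1 higher (5.56%, beside 1.23%). The other 15 were not called, and the list's median was −0.13 (0.20 with library totals). Both lower genes passed the filter on low counts only through *pifq*, where they are high, and neither was tested when expression in both genotypes was required. *COL2* had 3.06, 3.1 and 3.64 normalized CPM in untreated WT, 1.15, 0.507 and 1.47 in treated WT, 60.8, 48.6 and 67.7 in untreated *pifq* and 4.93, 4.47 and 5.26 in treated *pifq*, with a difference of −1.99 (SE 0.35, adjusted p = 0.00192). *BBX16* had at most 0.109 normalized CPM in any WT library and went from 18.9, 16.9 and 19.6 to 0.228, 0.0721 and 0.157 in *pifq*, so that its response in WT lies below the smallest detected level and no fold change is given for it; its call was lost without WT dark linc 3 (adjusted p = 0.199). *BBX15* was higher, since it fell from 11.8, 14.7 and 13.1 to 0.919, 1.67 and 1.09 in WT and only from 61, 65 and 58.5 to 12.8, 20.8 and 20.7 in *pifq* (difference 1.66, SE 0.30, adjusted p = 0.00213). Each of these genes was above WT in untreated *pifq*.

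Several leading genes with a lower response were in none of the hand-written lists. AT3G21480, whose product is annotated as a DNA repair protein with a BRCT domain, had the smallest p of all, with 4.99, 5.75 and 4.26 normalized CPM in untreated WT, 5.36, 6.44 and 5.46 in treated WT, 55.7, 54.7 and 44.4 in untreated *pifq*, and 6.68, 5.77 and 6.67 in treated *pifq*. Lincomycin brought it from far above WT to the upper edge of the WT range, while WT was level (difference −3.23, SE 0.22, adjusted p = 3.65e-07). AT3G60540, annotated as a Sec61-beta subunit protein, differed by −2.61, AT5G59080, an uncharacterized protein, by −1.74, and AT4G01870, annotated as tolB-like, by −1.60. *BGLU11*, a beta-glucosidase gene, and *CaS*, for a thylakoid calcium-sensing protein, differed by −1.58 and −1.70. AT1G77765, among the largest differences, was lower by −3.32. *MES16*, for an esterase that acts on products of chlorophyll breakdown, was at 9.51, 12.2 and 13.1 normalized CPM in untreated *pifq* and 0.531, 0.866 and 0.785 in treated *pifq*, against 6.75, 11.1 and 8 and then 3.44, 4.63 and 2.73 in WT, so it differed by −2.72 although the untreated genotypes overlapped.

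Among the genes with a higher response, the smallest p belonged to *TT4* (AT5G13930, chr5:4488476-4490264), for chalcone synthase, the first enzyme of flavonoid synthesis. It had 20.6, 21.5 and 20.6 normalized CPM in untreated WT and 17.8, 17.4 and 18.2 in treated WT. In *pifq* it had 5.11, 4.96 and 5.56 without the drug and 31.7, 27 and 21 with it. Untreated *pifq* was the lowest group, and treated *pifq* overlapped untreated WT and was above treated WT. The difference was 2.58 (SE 0.21, adjusted p = 1.73e-06), and 2.43 to 2.72 when 1 library was left out. Of 11 flavonoid genes tested (of 25 listed), 3 were higher (27.3%, beside 1.23% of all genes) and 1 lower (9.09%, beside 3.75%), with a median difference of 0.52. One of the 3, *FLS1*, passed the filter on low counts only through treated *pifq*, where it is high. With expression in both genotypes required, 2 were higher and 1 lower. The other higher calls, *FLS1* for flavonol synthase at 1.38 and the flavonol glycosyltransferase gene *UGT78D1* at 0.76, and the lower call of the repressor gene *MYBL2* at −0.87, were lost when single libraries were left out. That of *FLS1* was kept only without WT dark 3 or *pifq* dark linc 3 (otherwise adjusted p 0.0564 to 0.129), and that of *MYBL2* only without WT dark 1, WT dark linc 3 or *pifq* dark linc 2 (otherwise 0.0521 to 0.123). *UGT78D1* lost its call without WT dark 3, WT dark linc 3, *pifq* dark 1 or *pifq* dark linc 1 or 2 (0.0525 to 0.0915). The count of higher flavonoid genes was 1 without WT dark linc 3, *pifq* dark 1, *pifq* dark linc 1 or *pifq* dark linc 2.

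*UPOX* (AT2G21640, chr2:9254378-9255743), a marker of oxidative stress whose product is mitochondrial, rose in both genotypes but further in *pifq*. It went from 13.5, 19.8 and 18.9 to 29.7, 33.7 and 31.9 normalized CPM in WT, and from 6.31, 6.62 and 6.46 to 45.3, 44.1 and 47.8 in *pifq*. *pifq* was below WT without lincomycin and above it with the drug, with no overlap among the 4 groups. The difference was 1.94 (SE 0.20, adjusted p = 2.03e-05). Of 10 mitochondrial stress markers tested it was the only one called higher. The median of that list was −0.18, with 6 differences below 0, and *UGT74E2* was called lower at −0.93 (adjusted p = 0.0431), a call lost without WT dark 1 or 3, WT dark linc 2 or 3, *pifq* dark 1 or 2, or *pifq* dark linc 2 or 3 (adjusted p 0.0667 to 0.129).

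The promoters of 4 leading genes, picked by hand and not by rank, are shown to set their sequences beside the shares of motifs given next. Each is the 250 bases before the annotated gene start, 5′ to 3′ on the strand of the gene, from the RefSeq TAIR10.1 assembly, with matches to the motifs searched in capitals. *BCH2* lies on the minus strand (window chr5:21337127-21337376) and *LHB1B1* (chr2:14524357-14524606), *TT4* (chr5:4488226-4488475) and *UPOX* (chr2:9254128-9254377) on the plus strand.
BCH2: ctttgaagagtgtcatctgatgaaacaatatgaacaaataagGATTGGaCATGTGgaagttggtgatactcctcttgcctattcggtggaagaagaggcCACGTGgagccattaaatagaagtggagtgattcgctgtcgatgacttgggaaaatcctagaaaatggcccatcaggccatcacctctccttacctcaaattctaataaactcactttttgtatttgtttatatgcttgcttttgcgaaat
LHB1B1: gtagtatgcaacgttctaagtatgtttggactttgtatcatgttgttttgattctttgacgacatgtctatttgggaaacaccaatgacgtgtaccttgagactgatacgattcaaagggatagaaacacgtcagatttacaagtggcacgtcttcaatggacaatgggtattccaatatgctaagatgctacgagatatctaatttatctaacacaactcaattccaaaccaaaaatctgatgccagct
TT4: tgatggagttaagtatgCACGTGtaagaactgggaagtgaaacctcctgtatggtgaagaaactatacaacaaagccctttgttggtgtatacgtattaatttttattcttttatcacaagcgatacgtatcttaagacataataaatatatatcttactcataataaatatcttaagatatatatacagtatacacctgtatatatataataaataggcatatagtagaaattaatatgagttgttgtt
UPOX: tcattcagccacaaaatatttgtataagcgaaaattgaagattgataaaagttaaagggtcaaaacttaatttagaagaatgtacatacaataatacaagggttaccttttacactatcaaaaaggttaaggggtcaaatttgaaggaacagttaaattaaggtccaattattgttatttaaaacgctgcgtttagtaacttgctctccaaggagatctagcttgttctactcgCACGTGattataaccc
The *BCH2* window holds a G-box (CACGTG) that begins 151 bases before the start, and further upstream a PBE-box (CATGTG) and a CCAATC element on the opposite strand (GATTGG). *TT4* holds a G-box 233 bases and *UPOX* one 16 bases before the start, and the *LHB1B1* window holds none of the 4 motifs. The G-box and the PBE-box (CACATG or CATGTG) are motifs to which PIFs are known to bind, CCAATC is a motif linked to GLK factors, and GATAAG is the core of the I-box of many photosynthesis promoters. Both strands were searched, and no motif contains another. A G-box was in 11.2% of the 525 promoters of genes called lower, 12.4% of the 170 of genes called higher and 7.59% of all 13958 of genes tested. For the PBE-box these shares were 12.2%, 17.6% and 11.1%, for CCAATC 14.7%, 8.82% and 10.5%, and for GATAAG 15.6%, 8.24% and 12.8%. These matches describe the letters in the windows and show no binding.

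Of 22 hand-listed genes of lipid transfer, the cuticle and very-long-chain lipids, 2 were higher (*LTP2* and *CER4*, 9.09%), with a median difference of 0.10. AT2G47780, annotated as a rubber elongation factor protein, the kind that coats lipid droplets, had 264, 338 and 336 normalized CPM in untreated WT, 366, 376 and 455 in treated WT, 53.2, 66.4 and 66.8 in untreated *pifq*, and 309, 264 and 238 in treated *pifq*. Untreated *pifq* was far the lowest group, treated *pifq* overlapped untreated WT, and treated WT was above all of these (difference 1.77, SE 0.20, adjusted p = 5.39e-05). *LTP2*, for an abundant lipid transfer protein of the epidermis, had 19031, 18510 and 20952 in untreated WT, 21290, 23269 and 22377 in treated WT, 3063, 3154 and 2703 in untreated *pifq*, and 7040, 6654 and 5816 in treated *pifq*, and so stayed below WT in both conditions (difference 0.93, SE 0.20, adjusted p = 0.00844). Of 49 lipid-transfer genes found by their descriptions, 6 were higher and 1 lower, 12.2% higher beside 1.23% of all genes, with a median of 0.29. They included AT4G22490 at 1.39, AT3G53980 at 1.34 and *DIR1* at 1.18. *CER4*, for the reductase that makes primary alcohols of the leaf wax, differed by 1.44, and *CYP77B1*, a cytochrome P450 gene, by 1.17. These lists by description were chosen after the leading genes had been seen.

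Lists of cell wall and growth genes had few calls, more of them higher than lower. Over all genes tested, 1.23% were called higher and 3.75% lower. Of 31 expansin, XTH and cellulose synthase genes, 1 was lower and 1 higher (3.23% each), with a median of 0.15. *EXPA1*, for a wall-loosening expansin, differed by −0.88 (SE 0.18, adjusted p = 0.00535) and *EXPA4* by 0.85 (SE 0.21, adjusted p = 0.02). The call of *EXPA4* was lost without WT dark 3, WT dark linc 1 or 3, *pifq* dark 1 or *pifq* dark linc 2 (adjusted p 0.0507 to 0.0647). Of 27 auxin genes, 1 was lower and 1 higher (3.7% each), with a median of 0.11. *TAA1*, for an enzyme of auxin synthesis, was lower at −0.81 (adjusted p = 0.00566). *IAA19* was higher at 0.69 (adjusted p = 0.0351), a call kept only without WT dark 2, WT dark linc 1, *pifq* dark 3 or *pifq* dark linc 2 (otherwise adjusted p 0.0632 to 0.106). Of 26 extensin and proline-rich protein genes, 4 were higher (15.4%) and 0 lower, with a median of 0.34. The count was 1 to 2 without WT dark linc 1, WT dark linc 3, *pifq* dark 3 or *pifq* dark linc 1. Of 60 pectin lyases and methylesterases, 5 were higher (8.33%) and 1 lower (1.67%), with a median of 0.13. The number higher was 3 without WT dark 1 or 2, WT dark linc 1 or 3, *pifq* dark 3, or *pifq* dark linc 1 or 2. Of 34 arabinogalactan protein genes, 3 were higher (8.82%) and 0 lower, with a median of 0.41, and 0 to 4 were higher when 1 library was left out. These lists were found by their descriptions, after the leading genes had been seen. Of 22 *SAUR* genes, small auxin-induced genes that promote cell elongation, 2 were higher (9.09%), *SAUR68* at 0.77 and *SAUR16* at 0.74. The median of the list was 0.34, and 1 gene was left without WT dark 1, WT dark linc 3, *pifq* dark linc 1 or *pifq* dark linc 2. *SAUR68* had 32.2, 26.6 and 25.3 normalized CPM in untreated WT, 31.6, 28.6 and 28.6 in treated WT, 10.6, 11 and 9.15 in untreated *pifq*, and 19.7, 17.7 and 18.1 in treated *pifq*. It rose in *pifq* and remained below WT. *GA2OX6*, for an enzyme that inactivates gibberellin, differed by 0.87 (adjusted p = 0.00204) in the same pattern.

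In the list for glucosinolate synthesis, which makes defence compounds of the cabbage family, 3 of 11 genes tested (of 23 listed) were higher, 27.3% beside 1.23% of all genes. The median was 0.50 and 10 of 11 differences were positive. The genes tested include the regulators *MYB34* and *MYB51* and the breakdown genes *TGG1* and *TGG2*, none of them called. Summed over the list, *pifq* held 447.2 to 585.3 normalized CPM untreated and 433.5 to 475.5 treated, so the sum did not rise. *CYP79B2*, which turns tryptophan towards indole glucosinolates, had 13.7, 8.93 and 11.3 normalized CPM in untreated WT, 10.6, 7.53 and 10.4 in treated WT, 5.27, 4.49 and 5.74 in untreated *pifq*, and 10.2, 9.59 and 11.9 in treated *pifq*. The treated *pifq* libraries lay within the WT range. Its difference was 1.28 (SE 0.26, adjusted p = 0.00571), *CYP83B1* of the next step differed by 0.72 (adjusted p = 0.00884), and *UGT74B1* by 0.82, a call kept only without WT dark 2, WT dark linc 2, *pifq* dark 1 or *pifq* dark linc 1 (otherwise adjusted p 0.0562 to 0.0889). *XPL1*, for a phosphoethanolamine methyltransferase of phosphatidylcholine synthesis, differed by 1.28 (SE 0.18, adjusted p = 0.000218), and AT3G17998, counted at nearly the same level in each library, by 1.24. The numbers of these loci are adjacent, AT3G17998 had no entry in the gene table used, and reads of the pair may not be independent.

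Other leading genes with a higher response had varied annotations. AT3G18530, an ARM repeat protein gene, was at 18.5 to 29.2 normalized CPM in the 6 WT libraries, at 0.559, 0.63 and 1.26 in untreated *pifq* and at 5.09, 5.91 and 7.77 in treated *pifq* (difference 2.80, SE 0.36, adjusted p = 0.000146). *MLP423*, of a family named for major latex proteins, was level in WT at 14.5 to 17.4 and rose from 39, 41.6 and 36.2 to 85.7, 83.2 and 85.2 in *pifq*, where it was above WT already without the drug (difference 1.15, adjusted p = 0.000182). *SCPL9*, a serine carboxypeptidase-like gene, and AT2G12462, with a sterile alpha motif, differed by 1.44 and 1.21. AT1G26380, AT4G09500 and AT1G55210, among the largest differences, were higher by 2.45, 2.40 and 1.91. Small nucleolar RNA loci were listed by their descriptions after the leading genes had been seen. Among 17 tested, all differences were positive, with a median of 1.30, and 4 were called higher (23.5%, beside 1.23% of all genes). With expression in both genotypes required, 3 were called higher. The count was 1 to 2 when most single libraries were left out, 12 without WT dark 2 and 10 without *pifq* dark 3. Small nucleolar RNAs mostly lack the poly(A) tails by which these libraries were captured.

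Opposite responses were rare. *LPA3*, for a factor that aids assembly of photosystem II, rose in WT from 20.2, 23.2 and 24.4 to 30.8, 29.2 and 32.5 normalized CPM and fell in *pifq* from 50.2, 48.2 and 48.9 to 32.7, 31.2 and 36.9, so that treated WT and treated *pifq* overlapped (difference −1.0, adjusted p = 0.000712). AT3G61080, annotated as a protein kinase superfamily protein, rose from 4.57, 5.53 and 4.57 to 8.73, 9.99 and 9.23 in WT and fell from 9.83, 10.6 and 10 to 6.98, 7.36 and 7.3 in *pifq* (difference −1.43, adjusted p = 0.000246). In the other direction *DIR1*, a lipid transfer protein of systemic defence signalling, fell from 61.7, 67.1 and 75.3 to 41.6, 46.3 and 45.7 in WT and rose from 227, 211 and 228 to 297, 391 and 302 in *pifq* (difference 1.18, adjusted p = 0.000475). In each of these genes untreated *pifq* was above untreated WT.

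**Figure D5:**
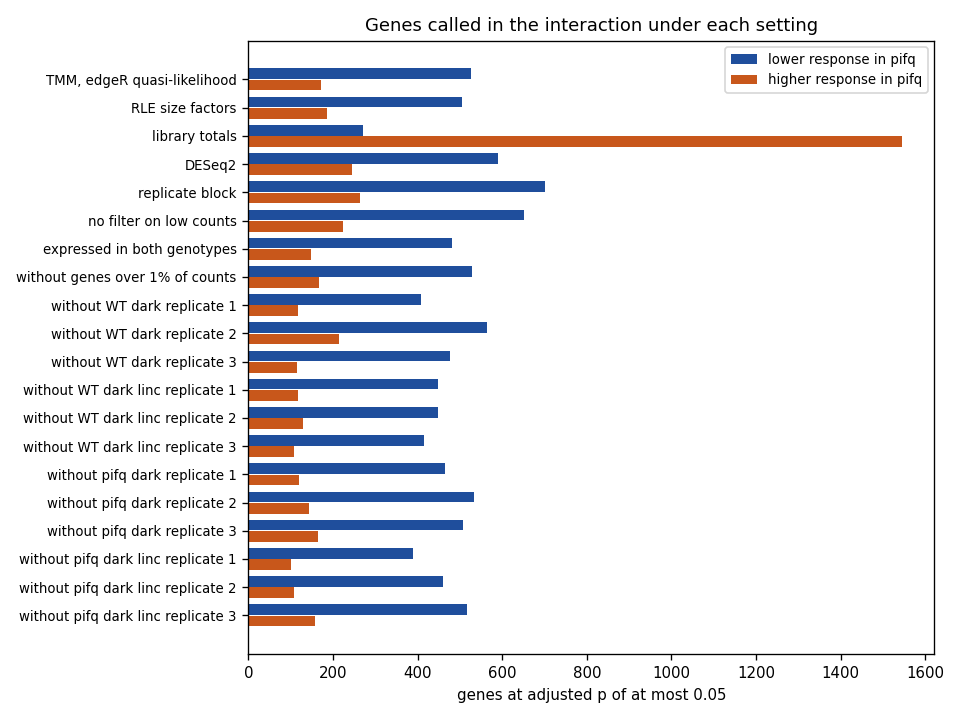
Number of genes with a lower (blue) and a higher (orange) response in *pifq* at an adjusted p of at most 0.05 with TMM and all 12 libraries (top) and under each alternative. Lower genes outnumber higher ones in all settings but library totals, where 270 and 1544 were called.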

How the data were processed

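Gene expression was measured by 3′-end RNA sequencing of poly(A) RNA in 12 libraries. Per the study's methods, the authors aligned reads with Bowtie 0.12.7 to the TAIR10 representative transcripts and deposited raw counts per gene on the coding strand within 500 bases of the 3′ end, so a level is not divided by gene length. The design text calls the replicates biological triplicates. The counts were fitted here with edgeR 4.0.16 in R 4.3.3: TMM scaling, a minimum of 5 CPM in 2 or more libraries, a quasi-likelihood test of the interaction over the 4 groups, and Benjamini-Hochberg adjustment over all genes tested. Responses within a genotype came from the same fit. Symbols, positions and promoters are from RefSeq TAIR10.1, where 32835 of 33601 loci were matched.

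Named genes were drawn from sets fixed by rule, and not all members of these sets are named. One set held the 12 called genes with the smallest p in each direction, with a mean of at least 20 normalized CPM in the highest group. Another held the 6 in each direction with the largest difference whose libraries all held more than 3 counts. Each list and direction gave up to 4 called members by p (or, with under 2 called, the 2 most abundant). The 4 *PIF* genes were added, and others were named after their values were seen. The members and lists were chosen with earlier results of these data known. The scripts were tested on simulated counts. Alternatives were DESeq2 1.42.0, other scalings and filters, a replicate block, stricter thresholds and leaving out each library.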

Additional observations from a re-analysis of the deposited data

Results flagged for a closer look

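Each value here is a difference between the genotypes in the response to lincomycin that passed the interaction test (quasi-likelihood test of edgeR, Benjamini-Hochberg adjusted, 3 libraries a group), or, for genes with opposite responses, that was also called in each genotype separately. In all, 527 genes were lower and 172 higher in *pifq*.

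The leading genes with a lower response, on the log2 scale, were AT3G21480 (−3.23), *BCH2* (−5.23), AT4G01870 (−1.60), AT3G60540 (−2.61), AT5G59080 (−1.74), *HEMA1* (−1.60), *LHB1B1* (−4.60), *BGLU11* (−1.58), *CaS* (−1.70), *PSAP* (−1.94), *PSAN* (−1.69) and *LHCB2.3* (−3.01). Those with a higher response were *TT4* (2.58), *UPOX* (1.94), AT2G47780 (1.77), AT3G18530 (2.80), *MLP423* (1.15), AT3G53980 (1.34), AT3G17998 (1.24), *XPL1* (1.28), *SCPL9* (1.44), AT4G22490 (1.39), AT2G12462 (1.21) and *CYP77B1* (1.17).

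Lincomycin moved 5 genes in opposite directions in the genotypes: AT1G52510 (−1.71), *LPA3* (−1.0), AT3G61080 (−1.43) and *GDU5* (−0.97) rose in WT and fell in *pifq*, and *DIR1* (1.18) fell in WT and rose in *pifq*. When each genotype was fitted on its own 6 libraries, 3 lower genes rose in WT and fell in *pifq*, against 4.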

How the results depend on the processing

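With library totals in place of TMM, 270 genes were lower and 1544 higher, against 527 and 172; this scaling moved the median difference of all genes to 0.33. At a fold of at least 2 and an adjusted p of at most 0.01, 230 were lower and 46 higher, by construction a subset. With the replicate number as a block, 701 were lower and 264 higher. The labels do not say that a number marks a shared batch. Same-numbered libraries of different groups correlated in their deviations at a mean of 0.17 (11 of 18 pairs above 0.1), against −0.0879 for different numbers (10 of 36), but not every library correlated best with its own number: WT dark 1 correlated at −0.233 with *pifq* dark 1 and at 0.449 with *pifq* dark 3. The cause of the higher counts with the block was not tested. DESeq2 called 589 lower and 244 higher, and its size factors in edgeR 505 and 187. Without the filter on low counts the counts were 652 and 224, and with genes expressed in both genotypes 482 and 148, of which 481 and 146 were among those called with the usual filter. Leaving out 1 library gave 389 to 563 lower and 101 to 214 higher genes. When each genotype's response was fitted on its own 6 libraries, 9 lower and 23 higher genes were called in neither genotype, against 2 and 10. No called gene was called in the opposite direction under these settings. Depth limits the weakest genes: 50 of the lower genes had under 5 normalized CPM in WT dark, and 44 of the higher ones in *pifq* dark.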
